A study of Canis lupus familiaris with 34 samples.

Results

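Smooth muscle and pericyte contractile genes were examined in osteosarcoma of the dog, a cancer of bone. The 10 genes were ACTA2, ACTA1, TAGLN, CNN1, MYH11, DES, LMOD1, SYNPO2, RGS5 and MCAM, taken by symbol from the platform annotation, out of 7849 genes tested on Affymetrix Canine_2 arrays. They had 26 probe sets, of which 13 rose above log2 5 on at least 3 of 34 arrays. These 13 represented 7 genes, and MYH11, LMOD1 and SYNPO2 had none.

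The arrays held 3 lines grown from metastases, 25 line arrays grown from primary tumours, and 6 snap-frozen primary tumour tissues, from 31 dogs. Metastatic lines came from 2 Rottweilers and 1 Rhodesian Ridgeback with age labels of 2.39 to 6.31. Primary lines came mostly from Rottweilers (10 arrays) and Golden Retrievers (8 arrays), with age labels of 2.0 to 11.19, and tissues from 3 Golden Retrievers and 3 dogs of other breeds with age labels of 2.67 to 11.91. Female arrays were 1 of 3 in metastatic lines, 11 of the 24 with a sex label in primary lines and 5 of 6 in tissues. The treatment label was SOC, which the labels do not spell out, for 1 metastatic line, 11 primary line arrays and 3 tissues. PALL stood on 1 metastatic line and 2 primary line arrays, AMP on 3 and ABX on 1 primary line array, and SOC* on 3 primary line arrays, for dogs that died before chemotherapy began (1) or ended (2). The others had no treatment label. The labels name no agent added to the cells; cultures were of tumour cells, some from frozen stocks, and their passage is not given in the labels. Both line arrays of dog 22 (primary lines 19 and 22) were averaged, which left 24 primary lines. Levels are given on the log2 scale of the GCRMA intensity, and so are differences. Levels of different probe sets were not set against each other.

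Contractile cells shorten by sliding smooth muscle actin past myosin. ACTA2 encodes the actin of vascular smooth muscle, TAGLN and CNN1 encode actin-binding proteins (transgelin and calponin), and LMOD1 and SYNPO2 encode proteins that assemble actin filaments. MYH11 encodes the smooth muscle myosin heavy chain and DES the muscle intermediate filament desmin. Pericytes wrap small vessels, and RGS5, a regulator of G protein signalling, and MCAM, a cell adhesion molecule also known as CD146, mark them. ACTA2, TAGLN and CNN1 are also switched on in myofibroblasts and in mesenchymal cells spread on plastic.

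Among genes that mark the bone lineage, chosen after their values were seen, COL1A1, a chain of type I collagen, had medians of 13.53 in metastatic lines, 13.79 in primary lines and 13.78 in tissues. IBSP, a bone matrix protein, had medians of 2.67 in metastatic lines, 2.69 in primary lines and 11.56 in tissues, and RUNX2, a bone transcription factor, had 4.22 in metastatic lines, 4.01 in primary lines and 4.34 in tissues. Collagen was thus high in all 3 groups, while IBSP, a mark of mature bone cells, was near background in lines. The 3′ probe set of actin exceeded the 5′ one, as happens in degraded RNA, by a median log2 difference of 0.64 in metastatic lines, 1.33 in primary lines and 2.58 in tissues. Within groups this difference was highest in metastatic line 1 (3.95), primary line 15 (4.04) and tissue 3 (4.61). Among tissues it was lowest in tissue 6 (1.27). Its part in the results below was not tested. In tissue, fewer cells of a type and less RNA per cell cannot be told apart.

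Cultured lines and tissues differed by gene within the set. TAGLN was higher in primary lines than in tissues, RGS5 and MCAM were lower, and ACTA2, CNN1, ACTA1 and DES did not pass the test. In that comparison 3 of 7 tested members were called at an adjusted p under 0.05 and at least 2-fold, against 14.6% of all genes tested, 5.57% higher and 9.06% lower (limma, Benjamini-Hochberg over 7849 genes). The median difference over all genes was -0.05 and that of the 7 members 0.03.

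**Figure D1:**
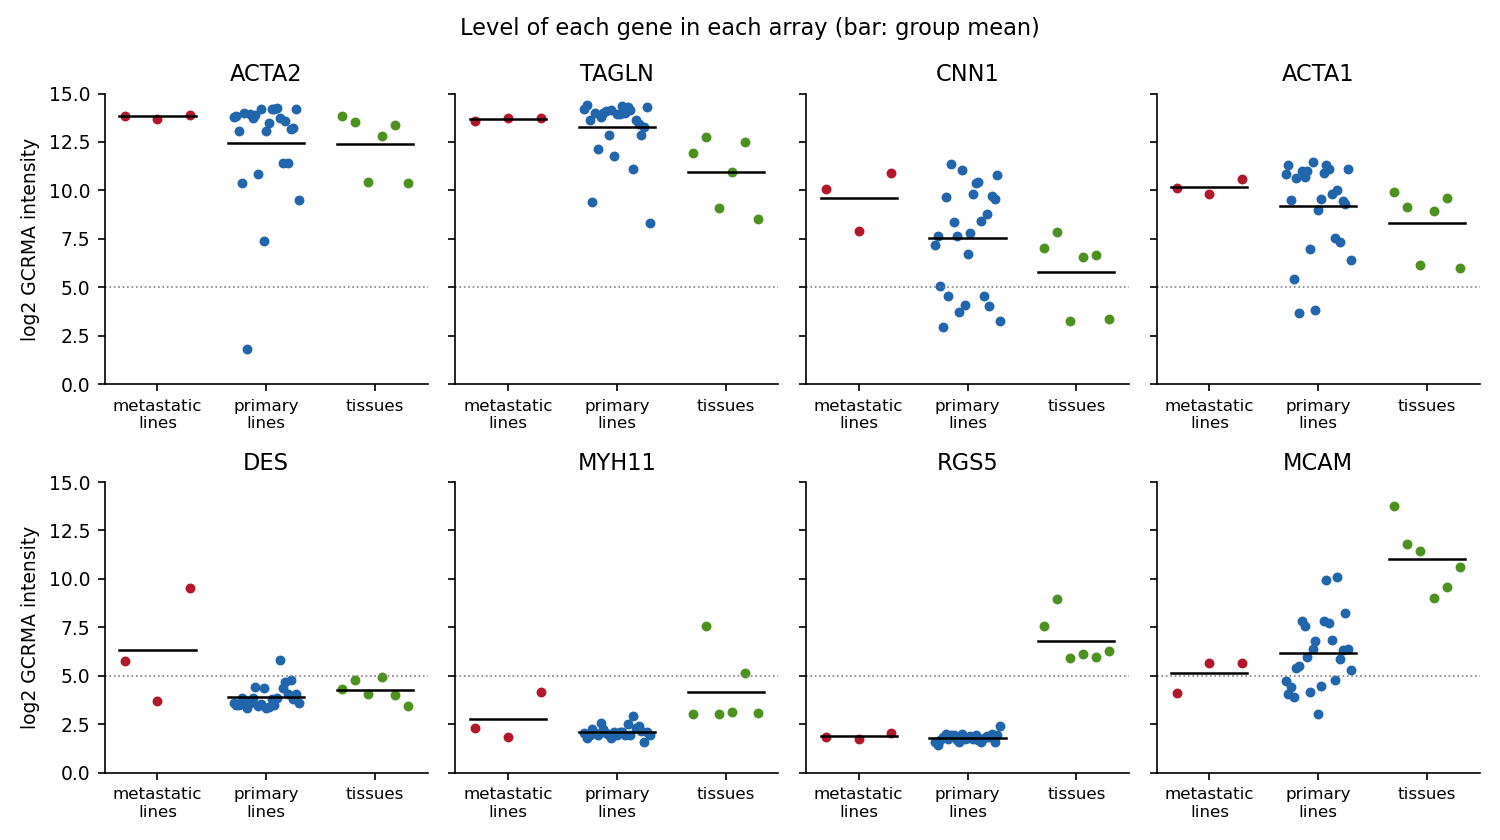
Log2 GCRMA intensity of 8 of the 10 genes in each array, 1 panel per gene, with groups from left to right and a bar at each group's mean. The 2 lines from dog 22 are plotted as separate points, and the dotted line marks log2 5. RGS5 lies under log2 5 in all lines and over it in all 6 tissues. ACTA2 overlaps between the groups, with primary lines 6 and 12 below the rest.

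TAGLN was 13.60, 13.72 and 13.73 in the 3 metastatic lines. In primary lines it ran from 8.30 to 14.41 with a median of 13.95, and in tissues it was 11.94, 12.74, 9.09, 10.95, 12.49 and 8.53. The mean was 13.25 ± 1.56 in primary lines (SD, n = 24) and 10.96 ± 1.78 in tissues (SD, n = 6). TAGLN was higher in 19 of 24 primary lines than in any tissue, and lower than all tissues only in primary line 25. The difference was 2.29 (SE 0.68, adjusted p = 0.0138 by limma), a 4.9-fold higher level in primary lines. A second probe set gave 2.84 (SE 0.84, adjusted p = 0.0134), and another gave 1.81 (SE 0.75, adjusted p = 0.0785 by limma over every kept probe set), which did not pass. Without tissue 3 the difference was 1.92 (adjusted p = 0.0618 by limma) and without tissue 6 it was 1.81 (adjusted p = 0.0714 by limma). The call therefore rested on tissues 3 and 6, which were the lowest.

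RGS5 was near the lower end of the scale in lines. It was 1.84, 1.76 and 2.07 in metastatic lines, ran from 1.44 to 2.42 with a median of 1.82 in primary lines, and was 7.57, 8.98, 5.90, 6.13, 5.96 and 6.27 in tissues. Every line was below every tissue, as was the case for 1.34% of all genes tested in primary lines. The difference was -4.99 (SE 0.25, adjusted p = 2.7e-17 by limma), and because the lines are near background it is a difference on this scale and no true fold. RGS5 passed the filter on low values only through the 6 tissues, so its p-values and calls, here and in the other comparisons, are only a description. The other 2 probe sets of RGS5, which are dimmer, did not pass the filter, and were also higher in tissues, with means of 1.75 and 1.36 in primary lines against 3.98 and 2.43 in tissues.

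MCAM was 4.13, 5.68 and 5.64 in metastatic lines and ran from 3.02 to 10.10 with a median of 5.92 in primary lines. In tissues it was 13.78, 11.78, 11.44, 9.03, 9.57 and 10.63. The difference was -4.87 (SE 0.78, adjusted p = 1.88e-05 by limma), a 29.3-fold lower level in primary lines. Of 24 primary lines, 22 lay below all tissues, and primary lines 16 and 20 had 9.94 and 10.10, within the range of the tissues. The other kept probe sets of MCAM gave -4.75 (SE 0.64) and -2.79 (SE 0.39), both called, against 15.9% of all kept probe sets. The -2.79 is only a description, since that probe set passed the filter solely through 4 tissues and stayed at 4.65 or lower in primary lines.

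The smooth muscle actin ACTA2 did not differ beyond its error. It was 13.86, 13.70 and 13.88 in metastatic lines, and ran from 1.84 to 14.24 with a median of 13.65 in primary lines. In tissues it was 13.84, 13.51, 10.44, 12.79, 13.40 and 10.39. The difference was 0.03 (SE 1.13, adjusted p = 0.988 by limma), which leaves room for a change of more than 2-fold either way. The groups overlapped, with 8 primary lines above all tissues and 4 below.

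CNN1 was 10.08, 7.90 and 10.89 in metastatic lines and ran from 2.97 to 11.36 with a median of 7.73 in primary lines. It was 7.02, 7.87, 3.25, 6.55, 6.68 and 3.37 in tissues. The difference of 1.74 (SE 1.10, adjusted p = 0.269 by limma) did not pass, and 11 of 24 primary lines were above all tissues. A second CNN1 probe set gave 2.32 (SE 0.92, adjusted p = 0.0666 by limma over every kept probe set), which also did not pass.

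ACTA1, the skeletal muscle actin, was measured mainly by a probe set whose name marks possible cross-hybridisation. It ran from 3.68 to 11.47 with a median of 9.91 in primary lines and from 6.02 to 9.93 with a median of 9.05 in tissues, a difference of 0.89 (SE 0.96, adjusted p = 0.541 by limma). That probe set followed ACTA2 over the 24 primary lines (Spearman rho 0.939, Pearson r 0.909), whereas the other kept ACTA1 probe set had rho 0.677 and r 0.371 and gave -0.50 (SE 0.89). The sign for ACTA1 therefore depended on the probe set, and a further probe set annotated to both actins was not used. DES was near background in nearly all arrays, with medians of 5.78 in metastatic lines, 3.77 in primary lines and 4.19 in tissues, and a difference of -0.37 (SE 0.42) between primary lines and tissues.

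**Figure D2:**
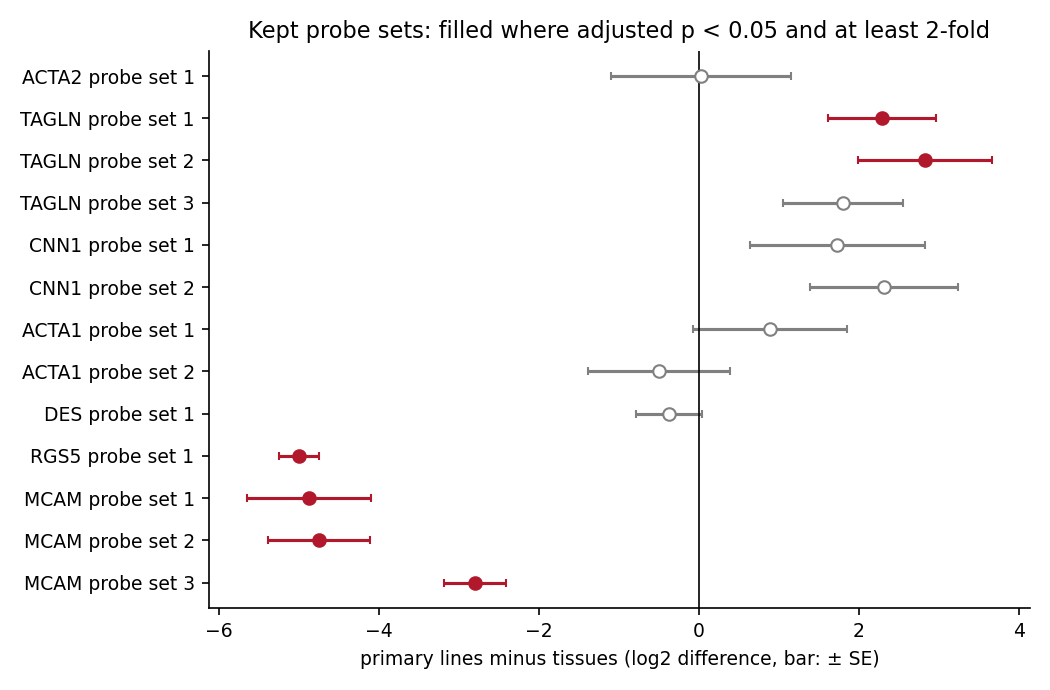
Log2 difference, primary lines minus tissues, of the 13 kept probe sets, with bars of ± SE and filled red points for an adjusted p under 0.05 and at least 2-fold over every kept probe set. The RGS5 and MCAM probe sets lie below 0 and the TAGLN and CNN1 probe sets above it.

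No probe set of MYH11, LMOD1 or SYNPO2 passed the filter. Without the filter, their brightest probe sets differed between primary lines and tissues by 0.15 for MYH11 (adjusted p = 0.343 by limma), 0.25 for LMOD1 (adjusted p = 0.111) and -0.04 for SYNPO2 (adjusted p = 0.787), and none was called. The MYH11 probe set with the highest tissue level had 2.29, 1.82 and 4.19 in metastatic lines, 2.92 at most in primary line arrays, and 3.02, 7.57, 3.04, 3.16, 5.14 and 3.09 in tissues. Only tissues 2 and 5 had it over log2 5. The other 3 MYH11 probe sets did not exceed 4.20 in any array, and LMOD1 and SYNPO2 did not exceed 3.76 in any.

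Tissues varied among themselves in a pattern shared by 4 members. Tissues 3 and 6 were lowest for ACTA2 (10.44 and 10.39), TAGLN (9.09 and 8.53), CNN1 (3.25 and 3.37) and the main ACTA1 probe set (6.16 and 6.02). The same tissues had RGS5 of 5.90 and 6.27 and MCAM of 11.44 and 10.63, within the range of the other tissues or just below it. Summed intensity of 9 tested endothelial markers was 4329 in tissue 3 and 2036 in tissue 6, against 1766 to 30708 over all tissues, and PECAM1, an endothelial adhesion molecule, averaged 11.43 in tissues. The highest RGS5, in tissue 2, and the highest MCAM, in tissue 1, came with the largest endothelial sums (12984 and 30708). Whether vessel content sets these levels was not tested.

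**Figure D3:**
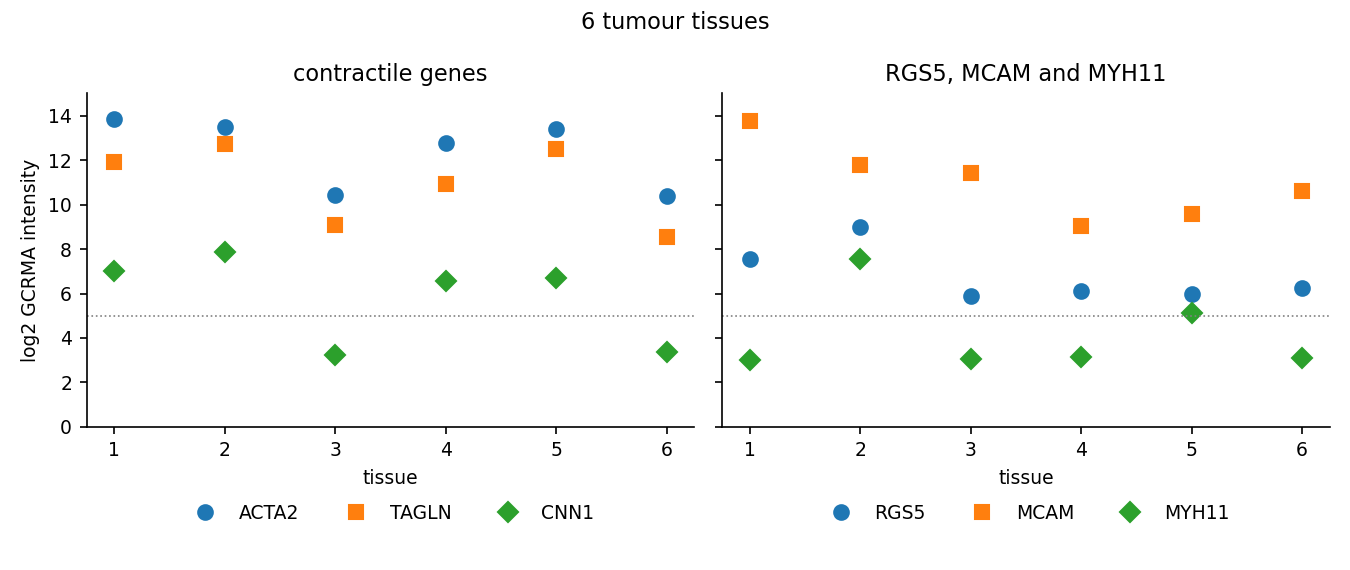
Log2 GCRMA intensity in each of the 6 tissues, with ACTA2, TAGLN and CNN1 on the left and RGS5, MCAM and MYH11 on the right; the dotted line marks log2 5. Tissues 3 and 6 are low for the 3 contractile genes on the left, at 10.44 and 10.39 for ACTA2. On the right, MCAM in these tissues lies within the range of the others, and RGS5 in tissue 3, at 5.90, is the lowest by a small margin.

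In 2 dogs a line and a tissue came from the same animal. In dog 23 primary line 20 exceeded tissue 6 by 3.18 in ACTA2, 5.09 in TAGLN and 5.43 in CNN1, while RGS5 was lower by 4.39 and MCAM by 0.54 (line minus tissue: -4.39 and -0.54). In dog 22 the result depended on which line array was taken. Primary line 19 was below tissue 5 by 1.96 in ACTA2, 1.41 in TAGLN and 2.11 in CNN1 (line minus tissue: -1.96, -1.41 and -2.11). Primary line 22 was 0.25 below tissue 5 in ACTA2 (-0.25) and above it by 0.38 in TAGLN and 3.02 in CNN1. RGS5 was lower in both line arrays, with line minus tissue values of -4.17 and -3.97, as was MCAM, at -4.80 and -3.25. Between these 2 arrays CNN1 differed by 5.12, and 31 of 7849 genes differed by more, with a median absolute difference of 0.56. Primary lines 19 and 22 carried title prefixes 2 and 3. RGS5 was thus lower in the line in each pair, while TAGLN and CNN1 were not always higher.

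Lines and tissues were partly confounded with the title prefix, a part of the sample name taken here as a possible batch. All 6 tissues and 2 line arrays had prefix 3, and the others had prefix 1 or 2. With the prefix as a covariate, 1 of 7 members was called (RGS5), against 6.28% of all genes. Within prefix 3 alone, primary lines 22 and 23 against 6 tissues, 1 was called (RGS5), against 3.2% of all genes. MCAM was then -3.76 (adjusted p = 0.124 by limma) and TAGLN 2.11 (adjusted p = 0.323 by limma). The direction held for MCAM and TAGLN. The covariate fit gave the same differences, since only primary lines 22 and 23 share the prefix of the tissues. These 2 settings are therefore 1 estimate.

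Metastatic lines were compared with primary lines and tissues. Against primary lines 0 of 7 members were called (limma, adjusted p), against 0.0127% of all genes, which is NRP1 alone, a gene named after its value was seen. By unadjusted p, 1 of 7 members was under 0.05, against 6.79% of all genes (limma). That member was DES, at 5.78, 3.68 and 9.52 in metastatic lines against a median of 3.77 in primary lines. The difference was 2.43 (SE 0.56, adjusted p = 0.188 by limma), and metastatic line 3 alone had a high level, 9.52 and 8.62 by both DES probe sets. Without metastatic line 2 the difference was 3.76 (adjusted p = 0.000153 by limma, with 0.306% of all genes called), and without metastatic line 3 it was 0.84. DES passed the filter only through metastatic lines 1 and 3 and primary line 18, so its p-values here are only a description.

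Against tissues, which are the same 6 arrays as above, 3 of 7 members were called, against 7.5% of all genes, 2.93% higher and 4.57% lower. RGS5 was lower by 4.91 (difference -4.91, SE 0.38, adjusted p = 1.34e-11 by limma) and MCAM by 5.89 (difference -5.89, SE 1.21, adjusted p = 0.00141 by limma), and DES was higher by 2.06 (SE 0.64, adjusted p = 0.041 by limma). TAGLN was 2.72 higher (SE 1.06, adjusted p = 0.109 by limma) and CNN1 3.84 higher (SE 1.71, adjusted p = 0.173 by limma), and neither passed. Without primary line 25, left out after its values were seen, TAGLN passed (adjusted p = 0.0432 by limma). The DES call was lost without tissue 1, 3, 5 or 6 and without metastatic line 1 or 3, where the difference was 0.47 without line 3. That call was also lost without the filter and with the title prefix as a covariate, and it held in 12 of 21 alternatives. DES passed the filter only through metastatic lines 1 and 3 and primary line 18, so the call is only a description. In females only, with 1 metastatic array, the DES difference was -0.47. All 3 metastatic lines were above all tissues for TAGLN and CNN1 and below all tissues for RGS5 and MCAM. The same held for 7.33% of all genes tested above the tissues and 6.63% below them.

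Among primary lines the SD was 2.85 for ACTA2, 2.68 for CNN1, 1.85 for MCAM and 1.56 for TAGLN (n = 24). ACTA2 was lowest in primary line 6 (1.84), followed by lines 12 (7.41), 25 (9.53), 4 (10.39) and 10 (10.87). TAGLN was lowest in lines 25 (8.30) and 4 (9.41), and stood at 12.13 in line 6. CNN1 was under 5 in 6 of 24 lines. Primary line 4 also carried a summed endothelial signal of 35261, against a median of 265 over primary lines. In it 7 of 9 tested endothelial markers exceeded log2 5. It had the highest macrophage sum (14109), although only 2 of 11 tested macrophage markers exceeded log2 5. The same line had the lowest CNN1 (2.97) and MCAM of 3.92, and whether it holds other cells was not tested.

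Across 24 primary lines the 10 pairs of members with enough signal were correlated, 8 of which had a Spearman adjusted p under 0.05 (permutation test, 100000 draws, two-sided). Of these, 3 involve the ACTA1 probe set that followed ACTA2. The lowest rho among the 8 was 0.463, which 7.66% of all pairs of tested genes reached. ACTA2 followed TAGLN (rho 0.859, r 0.597; adjusted p = 2e-05 and 0.018) and CNN1 (rho 0.877, r 0.676; adjusted p = 2e-05 and 5e-05), and TAGLN followed CNN1 (rho 0.675, r 0.699; adjusted p = 0.00078 and 3.3e-05). CNN1 and MCAM also varied together (rho 0.656, r 0.576; adjusted p = 0.0011 and 0.006). TAGLN and MCAM did not pass (rho 0.217, r 0.248; adjusted p = 0.31 and 0.27), nor did ACTA1 and MCAM (rho 0.378, r 0.312; adjusted p = 0.077 and 0.17), which passed by rank within title prefix 2 (rho 0.546, adjusted p = 0.019). ACTA2 and MCAM passed by rank only (rho 0.463, adjusted p = 0.029; r 0.229, adjusted p = 0.28), and not without primary line 4 (rho 0.426, adjusted p = 0.055). The smallest p these permutations give is 1e-05. Without the 2 lines farthest from the median of ACTA2, r was 0.883 with TAGLN and 0.88 with CNN1, and without those farthest for CNN1 it was 0.535 with MCAM. Within title prefix 2 rho was 0.868, 0.882 and 0.621 for these 3 pairs.

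**Figure D4:**
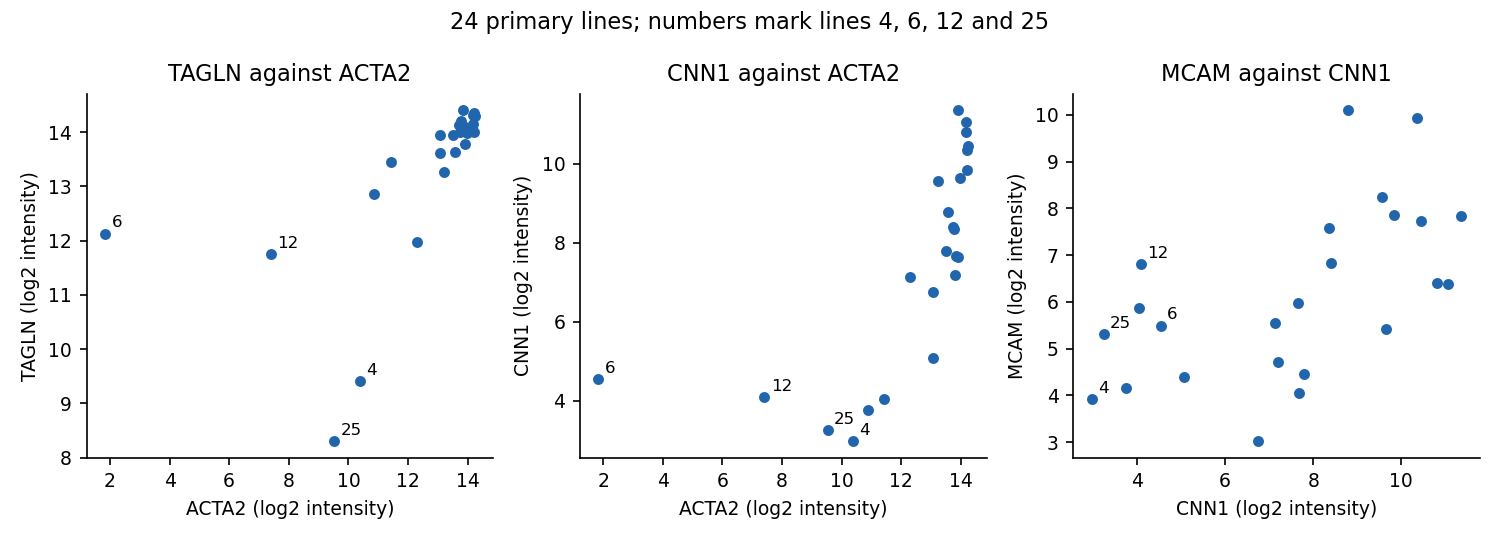
Log2 GCRMA intensity of TAGLN against ACTA2, CNN1 against ACTA2, and MCAM against CNN1 in the 24 primary lines, 1 point per line. Numbers mark primary lines 4, 6, 12 and 25, of which line 6 lies far to the left in both ACTA2 panels at 1.84.

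The genes most like a member across primary lines were found by Spearman rho among all genes tested. After ACTA1, ACTA2 was nearest to MYL9 (0.882), the regulatory myosin light chain, then CNN1 (0.877), HSPB7 (0.87) and ITGA5 (0.868), a fibronectin receptor chain. CNN1 was nearest to CSRP1 (0.883), ACTA2 (0.877), MEIS2 (0.877), MYL9 (0.833) and ACTA1 (0.818). TAGLN was nearest to BRAF (0.883), whose mean of 4.38 in lines is low, then ACTA1 (0.864), ACTA2 (0.859), MYL9 (0.853) and NMB (0.835). MCAM was nearest to LYRM1 (0.857), PSME4 (0.804), SIRT5 (0.76), SULT4A1 (0.747) and CAP2 (0.744). HSPB7, NMB and SULT4A1 also had low means in primary lines, at 4.42, 4.94 and 3.79. RGS5, near background in all lines, was nearest to COMMD3 (0.719), EXO5 (0.647), ZPLD1 (0.622), FAM166A (0.583) and DZANK1 (0.581), a likeness of values with little signal.

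In primary lines 6 and 12, low ACTA2 came with low values of some, not all, measured genes near it, a pattern noticed after the values were seen. ACTA2 lies on chromosome 26 in the order of the UU_Cfam_GSD_1.0 annotation, 3 protein-coding genes from the end, and 8 of 18 protein-coding neighbours looked at had a kept probe set. RNLS was 1.45 and 1.35 in lines 6 and 12 against a median of 7.85 in the other 22 lines, and STAMBPL1, a deubiquitinase, was 1.70 and 1.60 against a median of 8.04. MINPP1 was 1.89 and 1.59 against a median of 7.61, although the lowest of the other lines had 1.40. FAS, a death receptor next to ACTA2, was 4.22 and 4.15 against a median of 5.51, inside the range of the other lines, whose lowest was 3.81. SGMS1, farther away, was 11.50 in line 6 and 2.29 in line 12. PAPSS2 (1.72 and 1.07) lay inside the range of the other lines, whose lowest was 1.03. ATAD1 was 3.70 in line 6, inside that range, and 3.10 in line 12, below its lowest of 3.39. LIPA was 2.30 and 2.02 against a lowest of 2.33, and exceeded log2 5 in only 3 of the other 22 lines. Copy number was not measured.

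**Figure D5:**
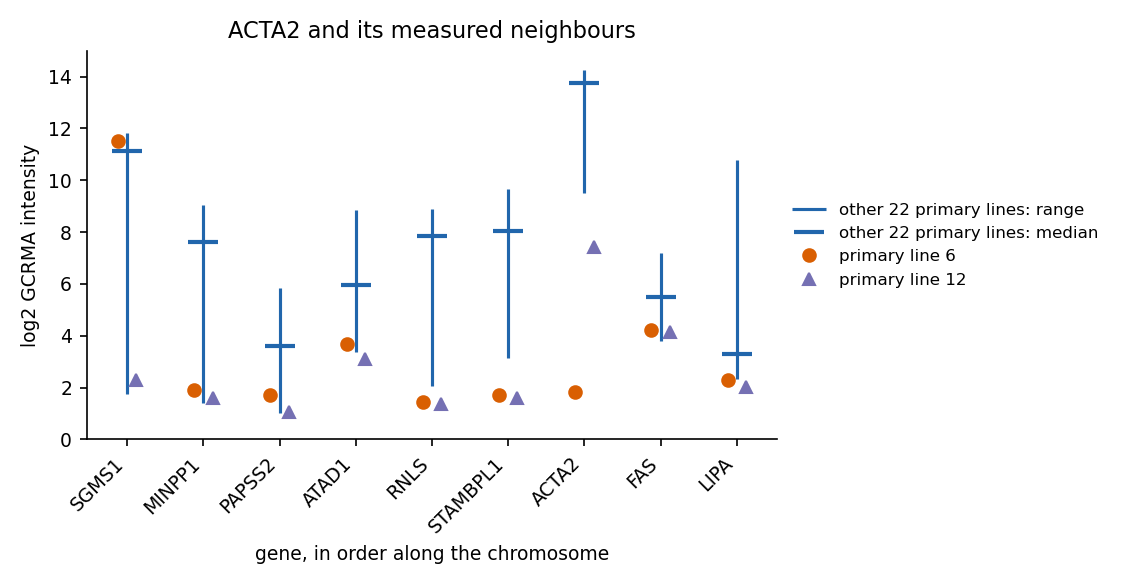
Log2 GCRMA intensity of ACTA2 and its 8 measured neighbours in gene order, with primary line 6 as circles, primary line 12 as triangles, and the range and median of the other 22 primary lines as bars. RNLS and STAMBPL1 lie below the range of the other lines in both, at 1.45 and 1.35 and at 1.70 and 1.60.

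Neither breed nor survival gave a call among the members. Between 10 Rottweiler and 7 Golden Retriever primary lines, 0 of 7 members were called, against 0.0255% of all genes (limma with sex as a covariate). By unadjusted p, 0 of 7 members were under 0.05, against 10.9% of all genes. ACTA2 ran from 1.84 to 13.97 with a median of 13.42 in Rottweiler lines and from 11.42 to 14.24 with a median of 13.79 in Golden Retriever lines, a difference of -2.26 (SE 1.55, adjusted p = 0.622 by limma). CNN1 averaged 6.54 ± 2.78 in Rottweiler lines and 8.43 ± 2.49 in Golden Retriever lines (SD, n = 10 and 7; adjusted p = 0.548 by limma). In 11 primary lines of dogs with the treatment label SOC, log2 of the survival label gave 0 calls among members, against 0.0% of all genes (limma). At an unadjusted p under 0.05 it gave 0 members, against 4.89% of all genes. With all 21 lines that have a survival label, 0 were called, as were 0.0% of all genes, and 4 members had an unadjusted p under 0.05, against 5.5% of all genes. These were ACTA2, ACTA1, TAGLN and CNN1, each with a positive coefficient, and their adjusted p was 0.829 each (limma). The 4 varied together across primary lines (rho 0.675 to 0.939), so they are not 4 separate results. Lines beyond the 11 had the treatment label AMP, PALL or SOC*, or none, so treatments were mixed.

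Related genes from lists chosen with earlier results of these data known gave the setting. Of 38 tested smooth muscle contractile genes, 5 were higher and 1 lower in primary lines than in tissues, against 5.57% higher and 9.06% lower over all genes. Their median difference was 0.73, against -0.05 over all genes. FHL2, a LIM protein, had a mean of 12.23 in primary lines and 9.18 in tissues, a difference of 3.05 (SE 0.24, adjusted p = 4.58e-12 by limma). The small heat shock protein CRYAB differed by 3.53 (SE 0.87) and PPP1R12A, a subunit of myosin phosphatase, by 1.38 (SE 0.36). SMTN, which encodes smoothelin of contractile smooth muscle, was lower, at -2.01 (SE 0.60, adjusted p = 0.0141 by limma). CALD1 (0.62, SE 0.27), TPM1 (-0.02, SE 0.37), TPM2 (1.03, SE 0.45), MYL9 (0.94, SE 0.52), MYLK (-0.12, SE 0.91) and ACTG2 (-0.15, SE 1.16) did not pass.

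Of 23 tested pericyte genes, 9 were lower and 1 higher in primary lines, against 9.06% and 5.57% of all genes, with a median difference of -1.01. ALPL differed by -6.69 (SE 0.86), COX4I2 by -4.90 (SE 0.69), NT5E by -4.52 (SE 0.67) and ABCC9, a potassium channel subunit, by -1.80 (SE 0.58), all called, and AXL was higher by 2.08 (SE 0.55). ALPL is also the alkaline phosphatase of bone-forming cells. It was 8.68, 7.29, 11.46, 11.03, 9.64 and 12.41 in tissues 1 to 6, lowest in tissues 1 and 2, where RGS5 was highest. PDGFRB, the receptor for platelet-derived growth factor on pericytes, did not pass (-1.01, SE 0.86), nor did ANPEP (-0.82, SE 1.10). ABCC9 exceeded 5 in tissues 1 and 2, the tissues highest in RGS5. CSPG4, NOTCH3 and KCNJ8 had no tested probe set.

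Among 20 tested regulators of contractile genes, 1 was higher and 4 lower, and their median difference, -0.05, equalled that of all genes, of which 5.57% were higher and 9.06% lower. KLF5, a zinc finger factor, was higher by 2.62 (SE 0.53), whereas MEF2C, a muscle transcription factor, differed by -4.78 (SE 0.71), EDNRA, an endothelin receptor, by -3.26 (SE 0.85) and EDNRB by -1.81 (SE 0.49). SRF, the factor that drives actin genes, was -0.44 (SE 0.26) and did not pass. Of 13 non-muscle cytoskeleton genes, 2 were higher and 0 lower, FLNC by 2.83 (SE 0.46) and ZYX by 1.94 (SE 0.63), and the median difference was 0.22. MYH9 was 0.96 (SE 0.29), under 2-fold, and ACTG1 0.04 (SE 0.11). Of 16 stroma genes, 2 were higher and 0 lower, LOX by 3.41 (SE 0.68) and THBS1 by 1.24 (SE 0.34), while 7 of the 16 had a difference above 0 and the median was -0.17.

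Markers of other cells moved with the comparison. All 11 tested macrophage markers were called lower in primary lines than in tissues, with a median difference of -5.73. Of 9 endothelial markers 7 were called lower, with a median of -3.99, against 9.06% of all genes. Macrophage markers above the filter level numbered 0 to 2 per primary line, 0 in metastatic lines and 9 to 11 in tissues. They therefore passed the filter mainly through tissues, and their calls are only a description. Endothelial markers above that level numbered 7 in primary line 4, 0 to 3 in each other primary line and 6 to 9 in tissues. Of those called, EMCN, KDR and PECAM1 exceeded it in 1, 3 and 2 primary lines and in all 6 tissues. These markers also passed the filter mainly through tissues, so the endothelial calls are read as a description too. Summed macrophage signal ran from 56 to 14109 in primary lines with a median of 62, and from 5507 to 26002 in tissues. Skeletal muscle markers gave 2 tested genes of 20, with 0 called, and their sum ran from 20 to 456 in primary lines and from 49 to 294 in tissues. Their part in the lower RGS5 and MCAM of the lines was not tested.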

How the data were processed

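Affymetrix Canine_2 arrays of 34 samples were used. The authors deposited 1 intensity per probe set and array, a linear value from GCRMA per the submitters' processing notes, whose version and settings were not stated. Here log2 was taken after a floor at 1, which altered 0 values. The 175 control probe sets among 43035 were dropped, and the annotation named 1 gene for 29254. Probe sets over log2 5 on at least 3 of 34 arrays were kept (18591), and the one with the highest mean stood for each of 7849 genes. Groups came from the source labels. Arrays have no read depth; their number limits precision. Replicates are lines and tissues of separate dogs, except that dogs 22 and 23 gave both, and p-values measure the spread between them.

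Differences were tested with limma 3.58.1 (lmFit, eBayes) in R 4.3.3, with all 3 groups in 1 fit and Benjamini-Hochberg adjustment. On simulated data of primary lines against tissues with 7849 genes, 60 of 66 genes changed by log2 3 were recovered. Of those changed by log2 2, 62 of 67 were recovered, and 16 of 67 changed by log2 1. The changed genes were drawn at random, so these rates are averages and need not hold for single members such as ACTA2 (SE 1.13). Pairing of line and tissue by dog comes from the labels; their deviations correlated at 0.157 in dog 22 and -0.175 in dog 23, and the block correlation was -0.027.

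The members, gene lists and tests were chosen with earlier results of these data known. Named genes were all members, for each list the 3 called genes of largest difference in each direction, some fixed vascular and cytoskeletal genes, and for 5 members the 5 genes nearest by Spearman rho. Alternatives are in the closing section. No sequences were used here.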

Additional observations from a re-analysis of the deposited data

Results flagged for a closer look

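Over the 6 tissues, 2 of 26 member probe sets held a value far from the others, by Dixon's ratio, which chance gives about 1 time in 20 per group. A dim RGS5 probe set was 3.75 in tissue 2, next to 2.52 in the second highest tissue, and the brightest RGS5 probe set was also highest there, at 8.98. A dim MCAM probe set was 3.32 in tissue 1, next to 2.03, and the brightest MCAM probe set was highest there too, at 13.78. Both flagged values lie under log2 5 and neither probe set was kept.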

How the results depend on the processing

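Counts of called members changed by over 1.5 times in 7 cases. Primary lines against tissues gave 1 called member with the title prefix as a covariate and 1 within prefix 3. Metastatic against primary lines gave 1 with array weights and 1 without metastatic line 2, in each case DES, whose calls are only a description. Metastatic lines against tissues gave 1 with a filter at log2 7 and 1 with the prefix covariate. The filter at log2 7 left 5 members, so RGS5 and DES were not tested there. The count against tissues also changed in females only, where the arm of metastatic lines was 1 array, assumed to vary like the other groups. Leaving out single tissues or metastatic lines gave 2 to 3 called members for primary lines against tissues, 0 to 1 for metastatic against primary lines and 2 to 3 for metastatic lines against tissues. The other 67 called counts stayed within 1.5 times. The called DES difference between metastatic lines and tissues turned to -0.473 in females. Signs that turned in the other 2 comparisons, none of them a called difference, were ACTA2 in primary lines against tissues under quantile normalization (-0.032), without line 9 (-0.036), without tissue 3 (-0.362) and without tissue 6 (-0.372), ACTA1 by its probe set of widest interquartile range (-0.497), and DES with the prefix covariate (0.045), within prefix 3 (0.045) and in females (0.028). In metastatic against primary lines they were TAGLN with array weights (-0.074), DES in females (-0.501), and RGS5 in females (-0.045) and without metastatic line 3 (-0.009). Leaving out single tissues moved ACTA2 between -0.372 and 0.317, and leaving out single metastatic lines moved RGS5 between -0.009 and 0.145. TAGLN lost its call also in females (2.42). Over up to 20 alternatives per gene RGS5 was called in 19 of 19, MCAM in 18 of 20 and TAGLN in 15 of 20. The RGS5 count is only a description, since RGS5 passed the filter through tissues alone. Of the pairs, ACTA2 and MCAM lost their call without line 4 (rho 0.426), and ACTA1 and MCAM gained one without the 2 lines farthest from the ACTA1 median (rho 0.448, adjusted p = 0.042) and within prefix 2 (rho 0.546, adjusted p = 0.019; permutation tests). With dog as a random block, as pairing by dog from the labels allows, the counts of called members were 3, 0 and 3. Metastatic lines against tissues could not be fitted within prefix 3, where no metastatic line lies. Primary lines 6 and 25 were left out as alternatives chosen after seeing the data, and primary lines against tissues kept 3 called members. The causes were not tested.

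Signal over background limits RGS5, DES and the genes that did not pass the filter.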
